A study of Mus musculus with 12 samples.

Results

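The 8 genes described here belong to the MHC class II antigen presentation route: the chains H2-Aa, H2-Ab1 and H2-Eb1, the invariant chain Cd74, the peptide loading factors H2-DMa, H2-DMb1 and H2-Oa, and the regulator Ciita. They were taken by symbol from a table of 54146 genes, in which all 8 were found. RNA had been measured in 12 libraries of aliquots of 50 cells sorted from mouse lungs as D2A1 cells, a mouse mammary carcinoma line marked with a green fluorescent histone and injected into the tail vein. Cells that had kept CellVue Claret, a membrane dye diluted by division, were sorted as dormant and cells without it as growing. The study asked how dormant and growing tumour cells differ, and what the loss of Tgfbr2 (the type II receptor for transforming growth factor beta) in host myeloid cells does to them.

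There were 4 groups of 3 libraries. Dormant WT and growing WT cells came from hosts that the labels call WT and the methods describe as controls with floxed Tgfbr2 alleles. Dormant KO and growing KO cells came from hosts in which the floxed alleles were combined with a Cre driven by the Lysozyme 2 promoter, so that Tgfbr2 was deleted in cells of the myeloid line and not in the injected tumour cells. Hosts were female and aged 6 to 8 weeks. The cells were sorted 12 to 14 days after injection. Of the 12 libraries analysed, those from WT hosts were all of library batch 1 and those from KO hosts all of library batch 2. Wherever KO is set against WT here, host and batch cannot be told apart, whereas dormant and growing cells of 1 host share a batch.

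MHC class II molecules are pairs of an alpha and a beta chain that carry peptides from the endosome to the cell surface, where CD4+ T cells read them. The invariant chain fills the groove of a new pair, cathepsins trim it down to a short stub, and H2-DM (a pair of H2-DMa and H2-DMb) exchanges the stub for a peptide, while H2-O (H2-Oa with H2-Ob) holds H2-DM back in B cells and some dendritic cells. Dendritic cells, B cells and macrophages make class II constantly or on activation, whereas most other cells, many tumour cells among them, make it only after interferon gamma has induced Ciita, the coactivator that assembles on class II promoters. In the lung, alveolar type 2 cells also carry class II.

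Levels are given as TPM, a measure of transcript abundance that has been divided by gene length and scaled to the same total of 1000000 in every library, so that levels of different genes can be compared. TPM holds no read depth, so the precision is that of 3 libraries per group, and the values of similar genes share reads by estimate. On log2(TPM + 1), Pearson's r between libraries of a group was 0.67 to 0.72 in dormant WT and 0.87 to 0.88 in dormant KO. It was 0.91 to 0.95 in the growing groups. The main fit used below shares 1 spread per gene over all groups, so that of dormant WT also enters comparisons without it. In these bulk samples, fewer cells of a type and less RNA per cell cannot be told apart. Between 11325 and 15315 genes were above 0 in a library, and the lowest number was in the dormant WT library of replicate 2. The dormant KO libraries stood apart from the other 9. Spp1 (osteopontin), the most abundant of the carcinoma markers, was at 1236 to 1509 TPM there and at 28980 TPM or more in every other library. Sftpc, the surfactant gene that defines alveolar type 2 cells, was at 36571 to 39284 TPM there and at no more than 423 TPM elsewhere. The epithelial marker Epcam was at no more than 0.16 TPM in the WT libraries, and its highest value, in a dormant KO library, was 5.34 TPM.

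Of the members, 6 lie in the class II region of chromosome 17 in GRCm38 (GENCODE M21), and the results below follow their roles rather than their order. H2-Oa is at chr17:34092340-34095234, H2-DMa at chr17:34119541-34139101, H2-DMb1 at chr17:34153072-34160230, H2-Ab1 at chr17:34257689-34269419 and H2-Eb1 at chr17:34305867-34316674, all on the plus strand, and H2-Aa is at chr17:34282744-34287823 on the minus strand. Ciita is on chromosome 16 at chr16:10480059-10528418, on the plus strand. Class II genes are read from promoters that share an X box, bound by the RFX complex and CREB, and a Y box, bound by NF-Y, and these boxes are shown because Ciita acts through them. RefSeq promoter windows (GRCm38.p6, 250 bases before to 50 after the start) were at hand for 5 of the 8 members, H2-Aa, H2-Eb1, H2-DMa, H2-DMb1 and H2-Oa. The X box was searched on both strands as AGNNACNNNTG and the Y box as CCAAT or ATTGG, letters chosen after these promoters had been read. Of 32851 promoters, 14.8% hold the X letters, 37.4% the Y letters and 0.161% (53 promoters) the X letters followed by ATTGG after 10 to 30 bases. The stretches below run from 150 to 21 bases before the start, 5′ to 3′ on the gene's strand, with matches to the X and Y letters in capitals.
H2-Eb1, chr17:34305717-34305846, plus strand: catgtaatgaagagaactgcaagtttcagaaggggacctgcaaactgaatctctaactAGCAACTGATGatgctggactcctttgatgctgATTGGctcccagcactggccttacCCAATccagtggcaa
H2-DMb1, chr17:34153041-34153170, plus strand: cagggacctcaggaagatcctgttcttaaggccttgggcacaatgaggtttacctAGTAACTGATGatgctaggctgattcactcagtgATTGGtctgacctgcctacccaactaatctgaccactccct
H2-Oa, chr17:34092229-34092358, plus strand: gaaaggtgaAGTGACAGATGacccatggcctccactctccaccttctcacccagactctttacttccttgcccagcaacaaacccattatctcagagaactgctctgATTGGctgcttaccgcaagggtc
H2-Aa, chr17:34287844-34287973, minus strand: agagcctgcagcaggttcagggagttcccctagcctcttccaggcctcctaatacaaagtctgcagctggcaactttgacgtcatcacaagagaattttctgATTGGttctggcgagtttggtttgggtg

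H2-Eb1 has 22 bases between its X and Y letters and H2-DMb1 has 23. In H2-Oa the X letters begin at position -141 and ATTGG at position -43, a wider spacing. H2-Aa holds ATTGG at position -48 and no match to the X letters in its window. Of the 2 windows listed for H2-DMa, 1 holds neither set of letters and the other only ATTGG, at position -198. No matches overlap each other in these stretches, and they are a description of letters, not of binding. The gamma interferon activated site (TTCNNNGAA, in 8.3% of promoters) was in none of the members' windows.

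Levels of the class II chains and of Cd74 followed the same order in all 4 genes, growing WT lowest, then growing KO, dormant WT and dormant KO. Cd74 (chr18:60803848-60812652, plus strand), which was the most abundant member on average in every group, was at 50.57, 49.58 and 44.69 TPM in the growing WT libraries. The growing KO libraries had 255.15, 247.18 and 226.93 TPM of Cd74. In dormant WT it was at 1346.09, 1170.89 and 903.29 TPM. In dormant KO it was at 1886.72, 2050.31 and 1667.83 TPM. No library of Cd74 overlapped with those of another group. Its mean ranked 2282 among all genes in growing WT, 751 in growing KO, 128 in dormant WT and 69 in dormant KO.

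For H2-Ab1, the beta chain of the A molecule, growing WT libraries had 43.11, 53.59 and 44.51 TPM and growing KO libraries 168.11, 202.65 and 160.79 TPM. The dormant WT libraries had 1343.69, 898.29 and 662.44 TPM of H2-Ab1. The dormant KO libraries had 1446.57, 1849.50 and 1567.19 TPM of it. The 4 groups were again apart, although the highest dormant WT library lay close to the lowest dormant KO library. H2-Aa, the alpha chain of the same molecule, read 7.65, 13.97 and 15.22 TPM in growing WT libraries and 62.79, 89.30 and 57.38 TPM in growing KO libraries. It reached 517.86, 323.02 and 234.87 TPM in dormant WT libraries and 762.76, 883.08 and 958.44 TPM in dormant KO libraries, again with no overlap between groups. H2-Eb1, the beta chain of the E molecule, stood at 12.77, 23.75 and 19.71 TPM among growing WT libraries and 74.70, 60.56 and 61.45 TPM among growing KO libraries. Dormant WT libraries had 451.42, 448.17 and 196.60 TPM of H2-Eb1 and dormant KO libraries 678.83, 792.37 and 664.03 TPM, so that the dormant WT library of replicate 3 was far under the other two but above all growing libraries.

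The loading factors were lower and less even. H2-DMa, one chain of H2-DM, measured 3.53, 13.67 and 1.13 TPM in the growing WT libraries, 12.61, 3.17 and 9.54 TPM in those of growing KO and 21.30, 2.81 and 34.35 TPM in those of dormant WT, which overlapped. Dormant KO stood above them all at 116.84, 99.20 and 93.58 TPM. H2-DMb1, its partner chain, was listed at 0, 0.09 and 0 TPM for growing WT, whereas growing KO libraries had 3.02, 2.89 and 1.38 TPM. Dormant WT libraries had 17.25, 0 and 14.35 TPM and dormant KO libraries 21.97, 15.68 and 39.26 TPM, and those ranges overlapped. H2-DMb1 has a near copy beside it, H2-DMb2, so the split of reads between the pair is uncertain.

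H2-Oa, one chain of the brake on H2-DM, was at 13.01, 7.82 and 6.17 TPM in dormant KO. It was listed at 0 in every dormant WT and growing KO library and at 0, 0 and 2.67 TPM in growing WT. Ciita was listed at 0 in all 6 growing libraries. Its dormant WT values were 0.01, 0 and 3.72 TPM and its dormant KO values 0.45, 0 and 0.01 TPM. A value of at least 1 TPM was thus found for Ciita in 1 of 12 libraries, the dormant WT library of replicate 3. Only genes that reached 1 TPM in 3 or more libraries were tested, so Ciita was left out and 7 members were tested. H2-Oa entered the test through the dormant KO libraries, where it is high. An exact 0 is only a listing, since transcripts that most cells use, such as Rfxank and Nfyc, also fall to 0 or near it in some dormant WT libraries.

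**Figure D1:**
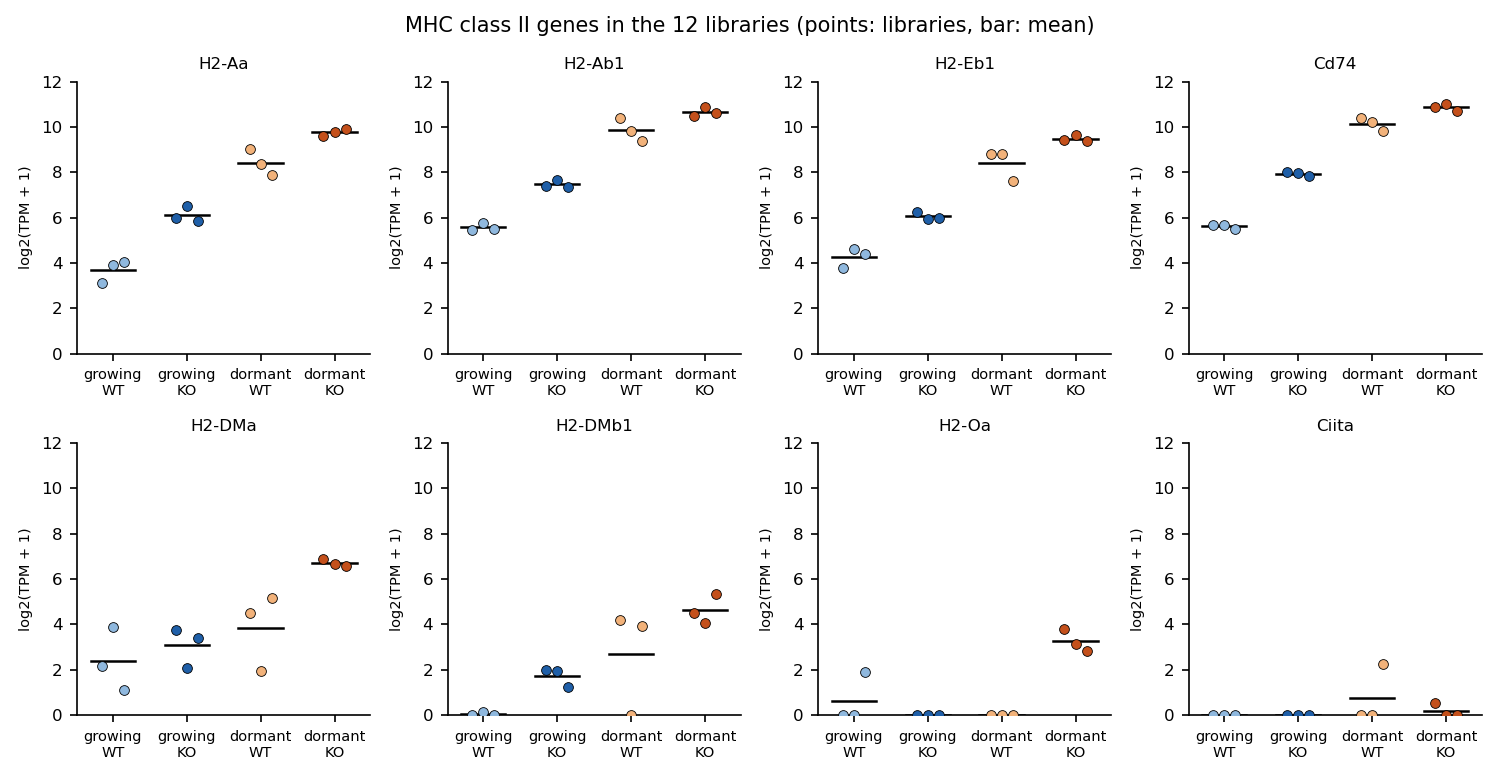
Level of each of the 8 class II genes in each library on a log2(TPM + 1) axis, by group, with points for the 3 libraries and a bar for their mean on that scale. H2-Aa, H2-Ab1, H2-Eb1 and Cd74 climb from growing WT to growing KO, dormant WT and dormant KO without overlap, H2-DMa and H2-Oa are highest in dormant KO, and Ciita reaches 3.72 TPM in 1 dormant WT library.

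The summed level of the 8 genes was 133 ± 19.1 TPM (SD, n = 3) in growing WT, 567 ± 45 in growing KO, 2863 ± 824 in dormant WT and 5207 ± 426 in dormant KO. The shares of Cd74 and the chains in this sum varied little next to its size. Shares of the loading factors were small and less even, 0.0988% to 8.84% for H2-DMa, 0% to 0.786% for H2-DMb1 and 0% to 2.09% for H2-Oa. Cd74 held 32.1% to 44.3% of it in the 12 libraries, H2-Ab1 29.2% to 36.6% and H2-Eb1 9.59% to 15.8%. H2-Aa held 6.5% to 11.9% in growing WT, 10.9% to 14.7% in growing KO, 11.4% to 14% in dormant WT and 15.5% to 19.2% in dormant KO. The transcript of H2-Aa per transcript of its partner H2-Ab1 was 0.26 ± 0.0822 (SD, n = 3) in growing WT, 0.39 ± 0.0444 in growing KO, 0.367 ± 0.0165 in dormant WT and 0.539 ± 0.0678 in dormant KO. The 3 dormant KO ratios, 0.527, 0.477 and 0.612, were above the ratio of all other libraries. The ratio is given as a description and was not tested.

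**Figure D2:**
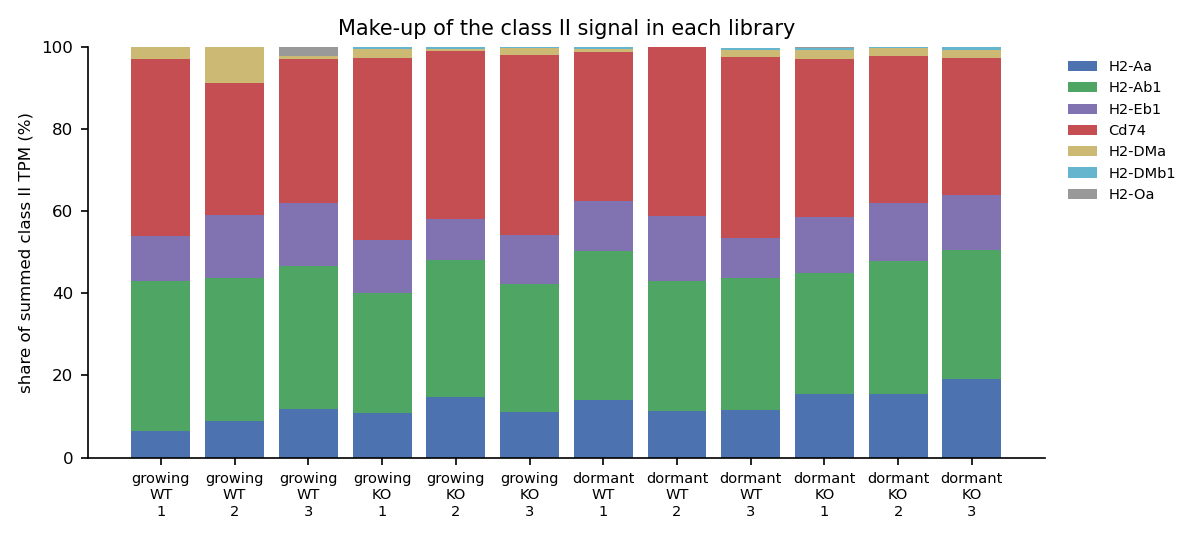
Share of each of 7 class II genes in the summed class II TPM of each library, in percent, as stacked bars. Ciita, at no more than 0.181%, is left out. Cd74 and H2-Ab1 make up most of the signal in every library, the H2-Aa share is 15.5% or more only in the dormant KO libraries, and H2-DMa reaches 8.84% in 1 growing WT library.

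Dormant and growing cells were compared first within WT hosts. The chains and Cd74 were all higher in dormant cells, Cd74 23.6-fold, H2-Aa 29.2-fold, H2-Ab1 20.6-fold and H2-Eb1 19.5-fold by group means. Differences were tested on log2(TPM + 1) with limma over 13002 genes, and a call needed both a Benjamini-Hochberg adjusted p of 0.05 or less and a difference of 1 or more in size. The log2 difference was 4.52 ± 0.17 (SE) for Cd74 (adjusted p 3.93e-08), 4.73 ± 0.35 for H2-Aa (1.24e-05), 4.28 ± 0.24 for H2-Ab1 (1.25e-06) and 4.16 ± 0.34 for H2-Eb1 (3.15e-05). These 4 of the 7 tested members were called higher and 0 lower, where 1.85% of all tested genes were called higher and 5.67% lower (7.51% in all). The dormant libraries of these 4 lay wholly above the growing libraries, as did those of 7.22% of all genes. The median difference was 4.16 over the 7 members and -0.35 over all genes tested. H2-DMa, with a log2 difference of 1.47 ± 0.90 (adjusted p 0.351), and H2-DMb1, with 2.67 ± 0.95 (0.11), were not called. Without the dormant WT library of replicate 2, in which H2-DMb1 is listed at 0, the H2-DMb1 difference was 4.02 (adjusted p 0.00144). H2-Oa was listed at 0 in dormant WT and was not called (0.495).

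In KO hosts the same 4 genes were again higher in dormant cells, and H2-DMa and H2-Oa joined them. Group means differed 7.69-fold for Cd74, 12.4-fold for H2-Aa, 9.15-fold for H2-Ab1, 10.9-fold for H2-Eb1 and 12.2-fold for H2-DMa. The limma log2 difference was 2.93 ± 0.17 for Cd74 (adjusted p 9.43e-07), 3.64 ± 0.35 for H2-Aa (3.71e-05), 3.19 ± 0.24 for H2-Ab1 (7.61e-06), 3.42 ± 0.34 for H2-Eb1 (5.24e-05) and 3.62 ± 0.90 for H2-DMa (0.0142). H2-Oa, listed at 0 in all growing KO libraries, was called higher with an adjusted p of 0.000902. H2-Oa passed the filter through the dormant KO libraries, so it had to differ and nothing is read from its call. Of the other 6 tested members 5 were called higher and 0 lower, where 17.8% of all genes were called (8.31% higher and 9.48% lower), and the median difference was 3.30 over these 6 and -0.32 over all genes. The H2-DMa call was lost without the dormant KO library of replicate 1 (adjusted p 0.0531) or the growing KO library of replicate 2 (0.063). H2-DMb1 was 10.6-fold higher by group means and its libraries did not overlap, as was so with dormant above growing for 16.4% of all genes, but with a log2 difference of 2.90 ± 0.95 it had an adjusted p of 0.0538. It passed in 9 of 21 alternative settings, among them all 3 that left out a dormant WT library.

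Growing cells from KO hosts were then set against growing cells from WT hosts. The chains and Cd74 were higher in growing KO, Cd74 5.03-fold, H2-Aa 5.69-fold, H2-Ab1 3.76-fold and H2-Eb1 3.5-fold by group means. The limma log2 difference was 2.31 ± 0.17 for Cd74 (adjusted p 0.00011), 2.44 ± 0.35 for H2-Aa (0.00538), 1.89 ± 0.24 for H2-Ab1 (0.00256) and 1.79 ± 0.34 for H2-Eb1 (0.03). In this comparison 0.977% of all genes were called (0.715% higher and 0.261% lower), and 4 of the 7 tested members were called, all higher. The growing KO libraries of these 4 and of H2-DMb1 lay above all growing WT libraries, which held for 13.3% of all genes. Over the members the median difference was 1.79 and over all genes 0.02. H2-DMb1 was at 2.43 TPM on average in growing KO and at 0.03 in growing WT, with no overlap, and its log2 difference of 1.70 ± 0.95 was not called (adjusted p 0.871). H2-DMa, at 0.69 ± 0.90, and H2-Oa were not called (adjusted p 1 for both). The H2-Eb1 call was lost on leaving out any 1 of the 6 growing libraries, with adjusted p of up to 0.145, or the dormant KO library of replicate 1 or 3 (0.0554 and 0.0544), and also with no filter (0.0567) and with the replicate block (0.0601), while those of Cd74, H2-Aa and H2-Ab1 held in all 21 alternative settings.

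Among dormant cells, those from KO hosts had the higher levels. Group means were 1868 against 1140 TPM for Cd74, 1621 against 968 for H2-Ab1, 868 against 359 for H2-Aa, 712 against 365 for H2-Eb1 and 103 against 19.5 for H2-DMa. By limma H2-Aa (log2 difference 1.34 ± 0.35, adjusted p 0.0144), H2-Eb1 (1.05 ± 0.34, 0.0448), H2-DMa (2.85 ± 0.90, 0.0382) and H2-Oa (adjusted p 0.00067, listed at 0 in dormant WT) were called higher. Cd74, at 0.73 ± 0.17 (adjusted p 0.00795), and H2-Ab1, at 0.80 ± 0.24 (0.0311), passed on p and fell short of a difference of 1. H2-DMb1 was at 1.93 ± 0.95 and was not called (0.173). Leaving aside H2-Oa, which again had to differ because of the filter, 3 of 6 tested members were called higher and 0 lower, where 22.3% of all genes were called (12.9% higher and 9.39% lower), and the median was 1.2 over these 6 and 0.17 over all genes. The libraries of 5 of the 6 did not overlap between these groups, as was so with KO above WT for 18.6% of all genes.

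These calls were the least stable of the 4 comparisons. Leaving out the dormant KO library of replicate 3 left only H2-Oa called, and without that of replicate 1 or 2 the count was 2 with H2-Oa among the genes counted. The growing KO library of replicate 3, which enters only through the shared spread, also left 2 when removed. H2-DMa was not called without the dormant WT library of replicate 2 (difference 1.89, adjusted p 0.0904), the library in which it is low, and H2-Eb1 not without that of replicate 3 (0.66, 0.0991). In all, the H2-DMa call was lost in 11 and the H2-Eb1 call in 12 of 21 alternatives, among them no filter, the replicate block and the removal of any 1 dormant KO library. Median-ratio scaling, which divides each library by its typical ratio to the others, brought Cd74 to 1.24 and H2-Ab1 to 1.31 and so called 6 members, H2-Oa among them, but it also moved the median of all genes from 0.169 to 0.501.

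**Figure D3:**
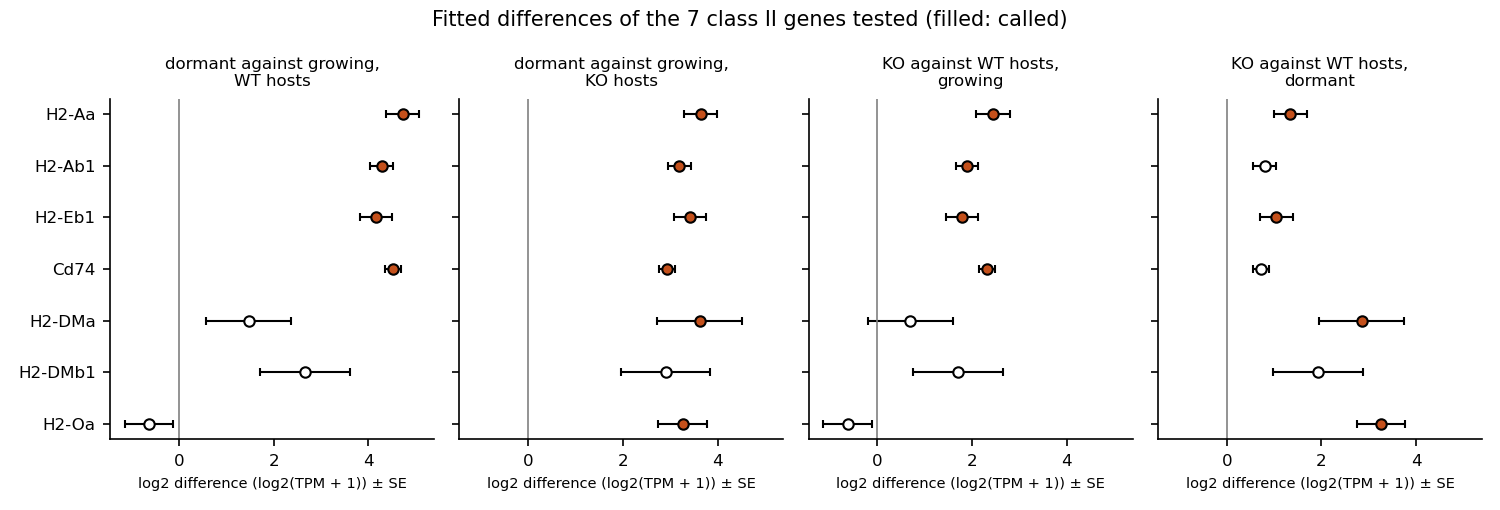
Log2 difference on the log2(TPM + 1) scale with its SE, as fitted by limma, for the 7 class II genes tested in the 4 comparisons; filled points were called and open points were not. The chains and Cd74 lie between 2.93 and 4.73 for dormant against growing cells and at 2.44 or less for KO against WT hosts, and the size for H2-Oa, which is listed at 0 in whole groups, depends on the 1 added to TPM.

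The test of whether the dormant against growing difference itself was unlike between hosts is the interaction, in which the value of WT hosts is subtracted from that of KO hosts. It was -1.58 ± 0.24 for Cd74 (adjusted p 0.00186), which was called in all 20 alternatives, and H2-Oa, which entered through the dormant KO libraries, was called in the other direction (adjusted p 0.00562), where 10.1% of all genes were called (6.18% higher and 3.91% lower). For the chains it was -1.10 ± 0.49 for H2-Aa (0.201), -1.09 ± 0.34 for H2-Ab1 (0.0655) and -0.74 ± 0.49 for H2-Eb1 (0.429), none of which was called. H2-DMa, with 2.15 ± 1.27 (0.36), and H2-DMb1, with 0.23 ± 1.34 (0.952), were not called either. The state differences share the libraries of the host comparisons, so the 2 sets of values are not independent of each other.

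The partner chains outside the 8 members followed. H2-Ea-ps, the gene of the E alpha chain, is annotated as a polymorphic pseudogene because the reference strain lacks a working copy (chr17:34341959-34344645, minus strand). Growing WT libraries had 12.22, 6.24 and 8.45 TPM of it and growing KO libraries 65.58, 41.54 and 60.48 TPM. Dormant WT libraries had 586.17, 127.67 and 110.85 TPM, the first far above the others, and dormant KO libraries 502.18, 474.33 and 427.67 TPM. It was called higher in dormant than in growing cells in WT hosts (log2 difference 4.40 ± 0.54, adjusted p 0.000624) and in KO hosts (3.07 ± 0.54, 0.00199) and between hosts in neither state (adjusted p 0.138 among dormant and 0.0573 among growing cells). H2-DMb2, the second beta chain of H2-DM, had 30.18, 44.82 and 46.16 TPM in dormant KO libraries and no more than 10.95 TPM in any other library. It was called higher in dormant KO libraries, both against dormant WT (3.0 ± 0.88, 0.0275) and against growing KO (3.07 ± 0.88, 0.0299), and these calls were lost in 8 and 9 of 21 alternatives. H2-Ob, the partner of H2-Oa, was at no more than 1.98 TPM and H2-Eb2 was listed at 0 in all 12 libraries.

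Among the enzymes that prepare the groove, few were called. Cathepsin S (Ctss), which makes the last cut of the invariant chain in most antigen presenting cells, had 0.49, 6.32 and 8.32 TPM in growing WT libraries and 54.83, 43.38 and 39.28 TPM in growing KO libraries. Dormant WT libraries held 535.27, 363.14 and 336.62 TPM of it and dormant KO libraries 787.92, 856.61 and 815.45 TPM, the order seen for the chains. By limma it was called higher in dormant cells of WT (6.44 ± 0.56, adjusted p 4.74e-05) and KO hosts (4.14 ± 0.56, 0.000347) and in growing KO against growing WT (3.31 ± 0.56, 0.0141), the last of which was lost without any 1 of the growing KO libraries. Between the dormant groups it was at 1.02 ± 0.56 and was not called (0.222).

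Cathepsin B (Ctsb) and legumain (Lgmn), proteases of the endosome that many cells make, were called lower in dormant KO. Ctsb was called lower for dormant KO against dormant WT (-2.37 ± 0.29, 0.000135) and against growing KO (-1.54 ± 0.29, 0.00305), and the second call was lost with median-ratio scaling (-0.95). Lgmn was called lower for dormant KO against dormant WT (-1.85 ± 0.24, 0.000184) and higher in dormant than in growing WT cells (1.38 ± 0.24, 0.00509). Cathepsin L (Ctsl), cathepsin D (Ctsd) and the thiol reductase Ifi30 were at 46.74 TPM or more in all 12 libraries and were called in none of the 4 comparisons. Of the 9 processing genes, all of which were tested, 0 were called higher and 2 lower among dormant cells between hosts, 1 and 0 among growing cells, 2 and 0 by state in WT hosts and 1 and 1 by state in KO hosts. Of all genes tested, 22.3%, 0.977%, 7.51% and 17.8% were called in these comparisons, so the 2 of 9 between the dormant groups and by state in KO hosts are near the share of all genes.

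**Figure D4:**
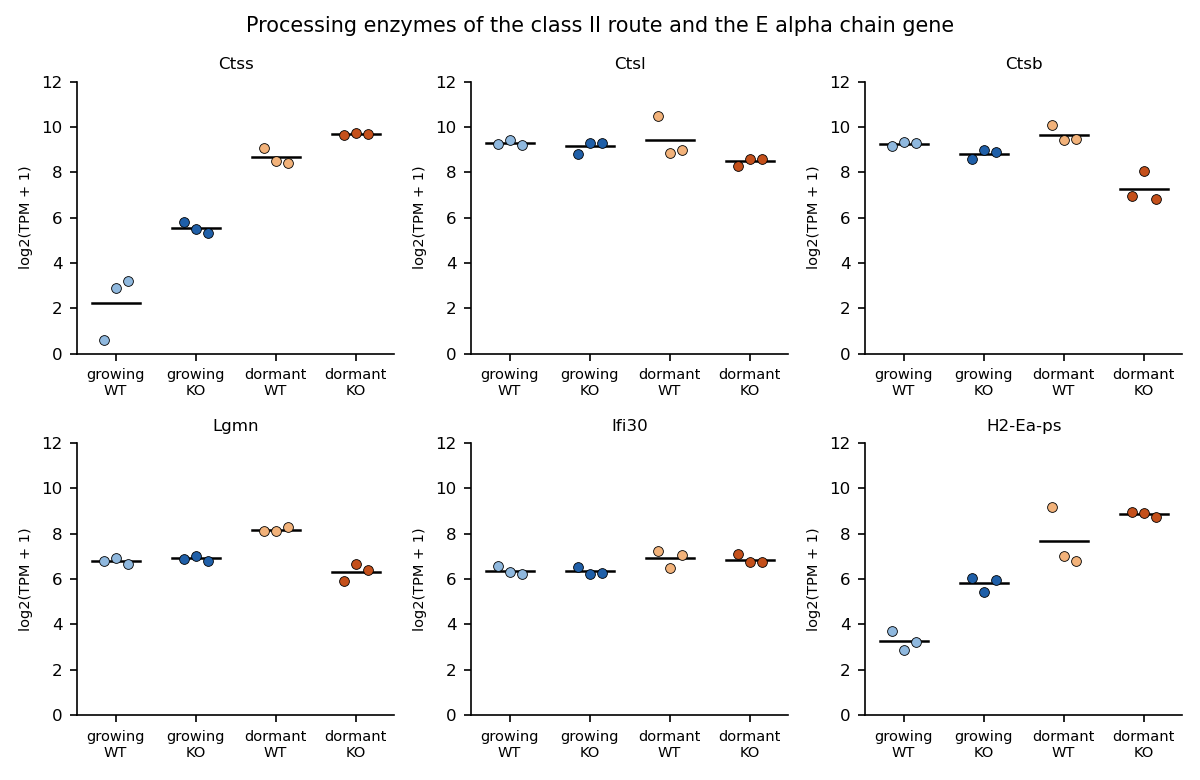
Levels of 5 processing enzymes and of the E alpha chain gene H2-Ea-ps in each library on a log2(TPM + 1) axis, with points for libraries and bars for means on that scale. Group means of Ctss and H2-Ea-ps climb in the order of the class II chains, with overlap of the dormant groups for H2-Ea-ps, whereas Ctsb and Lgmn are lowest in dormant KO.

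The known route to Ciita showed no called gene. Interferon gamma (Ifng) was listed at 0 in all 12 libraries. Of the other 9 genes listed for its route, among them the receptor genes Ifngr1 and Ifngr2, the kinase genes Jak1 and Jak2, and Irf1, limma called 0 in each of the 4 comparisons and in the interaction, with an unadjusted p under 0.05 for 2 of them by state in WT hosts, for 1 by state in KO hosts, for 1 between hosts in dormant cells and for 0 between hosts in growing cells and in the interaction. Of all 13002 genes, 7.51%, 17.8%, 22.3%, 0.977% and 10.1% were called, in the order of that list. An unadjusted p under 0.05 was found for 3113, 4011, 4591, 979 and 3031 of all genes, in the same order. None of the counts for the 9 genes was above the share of all genes. Irf1, the factor that interferon gamma induces to act on Ciita, had 33.63, 31.95 and 47.53 TPM in dormant KO libraries and 89.14, 62.95 and 90.81 TPM in growing KO libraries (log2 difference -1.09 ± 0.78, adjusted p 0.386).

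Of the 7 genes whose proteins sit on the X and Y boxes, 6 were tested (Rfxap, Rfxank, Nfya, Nfyb, Nfyc and Creb1) and limma called 0 in any comparison. Of all genes, 0.977% to 22.3% were called in the 4 comparisons and 10.1% in the interaction. An unadjusted p under 0.05 was found for 2 of the 6 by state in WT hosts, for 1 in the interaction and for 0 elsewhere. It was found for 3113 of all 13002 genes by state in WT hosts and for 3031 in the interaction. Of the immune cell factors that act on Ciita, 4 of 6 were tested and 1, Irf8, was called. That call was between the dormant groups, where 22.3% of all genes were called, so 1 of 4 is near the share of all genes. Irf8 was at 4.72, 8.48 and 13.87 TPM in dormant KO, was listed at 0 in all dormant WT libraries and had an adjusted p of 0.00461 between them, which was 0.144 and no longer a call with array weights. Among costimulatory genes, which give T cells a further signal beside the peptide, 4 of 5 were tested, and Cd86 was at 6.11, 24.73 and 7.84 TPM and Cd40 at 5.12, 16.75 and 10.10 TPM in dormant KO. Both were called higher there than in dormant WT (adjusted p 0.00208 and 0.00773), where Cd86 was listed at 0 and Cd40 averaged 0.477 TPM, and with array weights neither was called (0.0794 and 0.128). In that comparison 22.3% of all genes were called (12.9% higher). Cd40 reached 1 TPM in only 2 libraries outside dormant KO, so like H2-Oa it passed the filter through the group where it is high and nothing is read from its call. Cd86 was also called higher in dormant than in growing KO cells (2.33 ± 0.66, 0.0276), a call lost in 6 of 21 alternatives (adjusted p up to 0.116), among them those without the dormant KO library of replicate 2 or the growing KO library of replicate 2 or 3. It was 1 of the 4 tested, where 17.8% of all genes were called.

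Class I presentation, which nearly all cells carry, was set beside class II. Its summed level over 9 genes was 7131 ± 172 TPM (SD, n = 3) in growing WT, 7574 ± 522 in growing KO, 6458 ± 1677 in dormant WT and 8913 ± 273 in dormant KO. Of 9 genes tested, Tap2, a peptide pump, was called higher for dormant KO against dormant WT (3.56 ± 0.50, adjusted p 0.000353) and lower in dormant than in growing WT cells (-3.20 ± 0.50, 0.00299). It was at no more than 0.02 TPM in dormant WT, so these sizes depend on the 1 added to TPM, and over the alternatives they ran from 1.68 to 6.69 and from -6.30 to -1.41. Psmb8, a subunit of the immunoproteasome, was called lower in dormant than in growing KO cells (-1.27 ± 0.29, 0.00924), a call lost with median-ratio scaling (-0.67) and with quantile normalization (adjusted p of up to 0.0978). These calls, 1 of 9 genes in each comparison, stand beside 22.3% of all genes between the dormant groups, 7.51% by state in WT hosts and 17.8% by state in KO hosts. Between hosts in growing cells limma called 0 of the 9, where 0.977% of all genes were called. An unadjusted p under 0.05 was found there for 5 of the 9 and for 979 of all 13002 genes. B2m, H2-K1 and H2-D1 were called in none of the 4 comparisons, but some of their values passed on p and fell short of a difference of 1. These were B2m between the dormant groups (0.65 ± 0.11, adjusted p 0.00151) and by state in KO hosts (0.74 ± 0.11, 0.00086), and H2-K1 by state in KO hosts (-0.89 ± 0.19, 0.00668). In the interaction Tap1, the partner of Tap2 in the pump, was called lower (-3.52 ± 0.89, 0.0275) and Tap2 higher (3.04 ± 0.71, 0.019), calls that were lost in 10 and 7 of 20 alternatives. Of all genes, 10.1% were called in the interaction.

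Genes whose levels were most like those of Cd74 were found by Pearson's r on log2(TPM + 1) over the 12 libraries, which share 4 groups and 2 batches, and r is given as a description. Among members r was 0.995 for H2-Ab1, 0.988 for H2-Aa, 0.986 for H2-Eb1, 0.809 for H2-DMb1, 0.718 for H2-DMa and 0.453 for H2-Oa. The 10 other genes with the highest r were Fcer1g (0.992), Cd52 (0.988), Fcgr2b (0.986), Ccl6 (0.980), Cyba (0.979), Ccl8 (0.977), Ctss (0.977), Apoe (0.974), H2-Ea-ps (0.970) and Lyz2 (0.966). Fcer1g and Fcgr2b code for Fc receptor subunits, Ccl6 and Ccl8 for chemokines and Cyba for a subunit of the phagocyte oxidase. Lyz2, lysozyme, is the gene whose promoter drives the Cre of the KO hosts, and it averaged 44.4 TPM in growing WT, 118 in growing KO, 1080 in dormant WT and 2898 in dormant KO.

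Markers of cells that carry class II also differed between groups. The summed level of 14 macrophage and monocyte markers was 18.6 to 28.4 TPM in growing WT, 93.7 to 120 in growing KO, 710 to 964 in dormant WT and 757 to 973 in dormant KO. The complement genes C1qa, C1qb and C1qc, which lung and tissue macrophages make, carried most of that sum in dormant WT. Of the 11 markers tested, limma called 5 higher and 1 lower in dormant than in growing WT cells, 7 and 0 in dormant than in growing KO cells, 2 and 0 in growing KO than in growing WT and 2 and 0 between the dormant groups, with KO higher. The 2 of 11 between the dormant groups stand beside 22.3% of all genes called, and the median difference there was -0.39 over the 11 markers and 0.17 over all genes, so this list as a whole was not higher in dormant KO. For the other 3 comparisons the share of all genes called was 7.51%, 17.8% and 0.977%, in the order given. C1qc, for example, was called in the first 3 of these, with log2 differences of 5.35 ± 0.42, 2.55 ± 0.42 and 2.36 ± 0.42 (adjusted p 1.98e-05, 0.00118 and 0.0178), and the last of them was lost in 5 of 21 alternatives. The defining macrophage markers Csf1r and Adgre1 were low throughout, at no more than 6.97 and 9.17 TPM in any of the 12 libraries. The alveolar macrophage markers Marco and Siglecf were listed at 0 in all growing libraries and were highest in the dormant WT library of replicate 2, at 19.69 and 4.33 TPM. The part of macrophage RNA in the class II levels was not tested.

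The ratio of class II to the 3 C1q genes was not the same in all groups. The summed class II TPM per summed C1q TPM was 15.1, 11.3 and 8.97 in growing WT, 8.29, 7.25 and 7.85 in growing KO, 4.26, 4.98 and 3.52 in dormant WT and 12.3, 10.9 and 11.9 in dormant KO. Dormant WT thus lay below every other library and dormant KO above every growing KO library. Between the dormant groups the C1q sum was 571 to 869 TPM in WT and 402 to 522 TPM in KO, but none of the 3 genes was called there (adjusted p 0.33, 0.561 and 0.497 for C1qa, C1qb and C1qc), and the sums of the whole list of 14 overlapped. The 2 markers of that list called higher in dormant KO were Ly6c2, a monocyte gene, which was listed at 0 in all dormant WT libraries and stood at 94.73, 107.28 and 90.21 TPM in dormant KO (adjusted p 3.07e-06), and Chil3 (4.45 ± 0.85, 0.00257), whose call was lost with array weights (0.0861). The general leukocyte genes Ptprc, Coro1a, Laptm5, Cd52 and Lcp1 summed to 4.38 to 24.6 TPM in growing WT, 48.7 to 65.7 in growing KO, 273 to 464 in dormant WT and 918 to 1178 in dormant KO, the order of the class II chains. Ptprc, which codes for CD45, had 46.58, 46.42 and 13.53 TPM in dormant WT libraries and 23.41, 25.43 and 24.95 TPM in dormant KO libraries, but only 0.59, 1.67 and 2.26 TPM in growing KO. For growing WT it was listed at 0, 0.05 and 0 TPM.

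Summed markers of the other class II cells were highest in dormant KO. The 8 B cell markers summed to 109 to 151 TPM in dormant KO, 0.02 to 2.24 in dormant WT, 3.06 to 9.91 in growing WT and 5.18 to 19 in growing KO. In dormant WT 6 of the 8, Cd79a and Cd79b among them, were listed at 0 in all 3 libraries. The 8 dendritic cell markers summed to 32.5 to 49.4 TPM in dormant KO, 0 to 0.47 in dormant WT, 0 to 0.39 in growing WT and 2.93 to 13.7 in growing KO, and 7 of the 8 were listed at 0 in all dormant WT libraries. Ccr7, Siglech and Cd209a carried most of the dormant KO sum, with means of 17.4, 9.09 and 7.44 TPM. Flt3, Xcr1 and Zbtb46 were at no more than 0.69 TPM there. Zbtb46 went the other way, with a mean of 2.36 TPM in growing KO and 0.11 in dormant KO. These zeros are only listings, since dormant WT libraries had 11325 to 13242 genes above 0 and every other library 13406 or more. Alveolar type 2 markers, 8 genes, summed to 40072 to 42411 TPM in dormant KO against 49 to 141 in dormant WT, 53.4 to 97.3 in growing WT and 457 to 465 in growing KO. T cell markers summed to 80.1 to 121 TPM in dormant KO and to no more than 34.6 in any other group, and 6 endothelial markers to 345 to 484 TPM and to no more than 27.4. The part of these cell types in the class II, H2-DM, H2-Oa, Irf8, Cd86 and Cd40 values was not tested in any comparison.

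**Figure D5:**
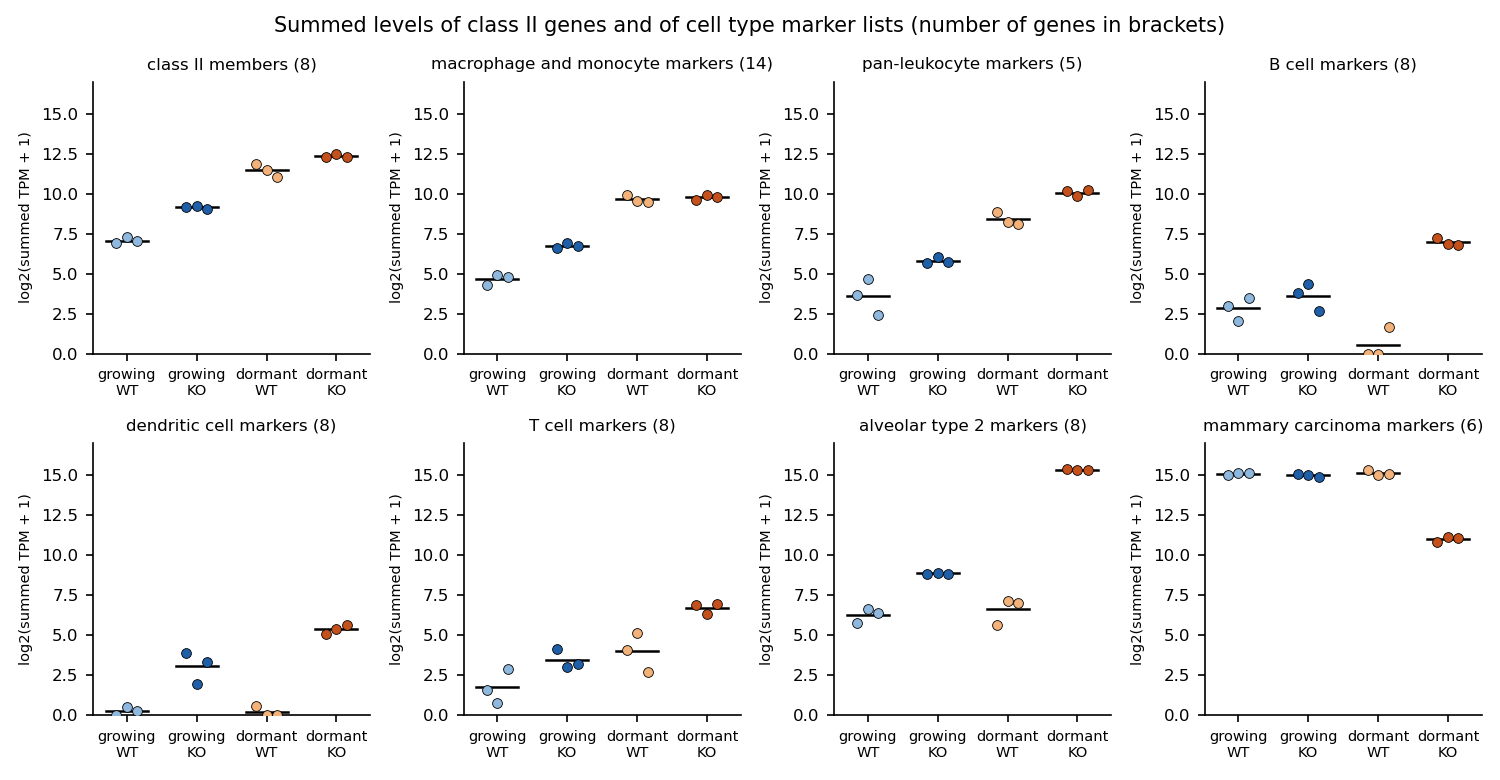
Summed TPM of the 8 class II genes and of 7 marker lists in each library on a log2(summed TPM + 1) axis, with points for libraries, bars for means on that scale and the number of genes in brackets. Class II, macrophage and leukocyte sums climb from growing WT to dormant cells, whereas B cell, dendritic cell, T cell and alveolar type 2 sums are highest in dormant KO and the carcinoma marker sum is lowest there.

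The comparisons that do not use the dormant KO libraries were also fitted on their own groups alone. There 4 members were called higher in dormant than in growing WT cells and 5 in growing KO than in growing WT cells, the fifth being H2-DMb1 (log2 difference 1.70, adjusted p 0.0299). Of all genes, 889 (6.84%) were called in the first of these fits and 308 (2.37%) in the second, and the second lost the calls of Ctss, C1qb and C1qc. The sum of the carcinoma markers, mostly Spp1, was 33102 to 35387 TPM in growing WT, 30469 to 34357 in growing KO and 33440 to 41246 in dormant WT. By state in WT hosts limma called 0 of the 6 genes of that list, where 7.51% of all genes were called. Vim was at 639 to 734 TPM in dormant WT and 872 to 909 in growing WT, and Krt18 at 131 to 231 and 243 to 327. Krt8 went the other way, at 183 to 381 and 153 to 168 TPM. Epcam and Cdh1 were at no more than 1.66 TPM in these groups. In dormant KO the carcinoma sum was 1834 to 2237 TPM, a difference that was almost all Spp1 (-4.66 ± 0.09 against dormant WT). The other 5 genes of that list differed among themselves in the same comparison: Krt8 was called lower (-1.62 ± 0.35) and Epcam higher (1.68 ± 0.53, lost in 13 of 17 alternatives, for a gene that passed the filter through dormant KO libraries), whereas Vim (-0.80 ± 0.12), Krt18 (0.09 ± 0.25) and Cdh1 (1.17 ± 0.48) were not called.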

How the data were processed

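Per the methods and labels, the authors trimmed reads with Cutadapt (1.18 in the submitters' processing notes), aligned them with STAR 2.5.2b to mm10 and estimated levels with RSEM (1.3.3 in those notes) on GENCODE. The methods name a Smart-seq2 protocol and the labels a TruSeq kit, and the use of strand is not given in the sources used here. The deposited values are TPM, with no depth, so no counting interval was computed. RSEM divides reads between similar class II genes by estimate, and the reference genome is of another strain than the line, which can lower the values of polymorphic chains. Another 30 per-sample columns matched no labelled sample and were not analysed here. The names of some of them give WT together with batch 2. The members, the pathway and marker lists, the tests and the alternatives were chosen with earlier results of these data known.

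TPM was taken as log2(TPM + 1). A gene was tested if it reached 1 TPM in 3 or more libraries (13002 of 25916 above 0). limma 3.58.1 (R 4.3.3, eBayes with trend) was fitted to all 12 libraries with 1 mean per group and 8 residual degrees of freedom, without batch, which is the same split as host. Tests were two-sided. A gene was called at a Benjamini-Hochberg adjusted p of at most 0.05, over all genes tested, and a difference of at least 1. Differences on this scale understate those of low genes, and no fold was given against a group listed at 0. The fit was tested on simulated data. A figure legend of the study gives 3 mice per group. The labels do not tie libraries to mice, so p-values measure the spread between libraries.

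The 7 tested members were named in every comparison, and Ciita, which was not tested, by its levels. From each pathway list up to 4 genes per comparison were named, the called genes with the largest difference or, where none was called, the 2 with the highest mean. The 10 genes most like Cd74 by Pearson's r were added. All other genes of these lists, such as Irf1, the X and Y box genes beyond 2, B2m, H2-K1 and H2-D1, and the marker genes were named after their values were seen. The settings varied were the pseudocount (0.1 or 5), the filter (none, or 5 TPM in place of 1), the scaling (median ratio or quantile normalization), the libraries in the fit (those of the groups compared, or all but 1), array weights and a block for the replicate number. Gene coordinates are those of GENCODE M21 on GRCm38.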

Additional observations from a re-analysis of the deposited data

Results flagged for a closer look

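Cd74 was singled out because its dormant against growing difference was unlike between hosts. It was 2.93 in KO hosts and 4.52 in WT hosts on the log2(TPM + 1) scale, and the test of the difference between them, the limma interaction, gave -1.58 ± 0.24 (adjusted p 0.00186). Over 20 alternatives it lay between -1.74 and -1.06, with an adjusted p of 0.000732 to 0.0142. Among the 11 macrophage and monocyte markers tested, the interaction was also called lower for C1qa (-2.63, adjusted p 0.0251), C1qb (-3.81, 0.0167) and C1qc (-2.80, 0.0105), calls lost in 8, 2 and 1 of 20 alternatives, and higher for Ly6c2 (0.000551). The part of macrophage RNA in the Cd74 value was not tested. Since the comparison of hosts is also that of library batches, the part of the batch cannot be told apart from that of the host.

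H2-Oa was singled out by the same test in the other direction, with an interaction of 3.89 ± 0.72 (adjusted p 0.00562). Its values were 13.01, 7.82 and 6.17 TPM in dormant KO, 2.67 TPM in 1 growing WT library and 0 in the other 8 libraries, so it passed the filter through the dormant KO libraries and its call was largely set by that filter. The size of this difference also depends on the pseudocount and ran from 1.66 to 8.03 over the alternatives. With array weights it was 3.94 and not called (adjusted p 0.0701). H2-Oa is known from B cells, and 8 B cell markers summed to 109 to 151 TPM in the dormant KO libraries and to 19 TPM or less in the other 9, and the part of B cells in the H2-Oa level was not tested.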

How the results depend on the processing

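The number of members called higher for dormant KO against dormant WT moved most. It was 4 with H2-Oa, which had to differ because of the filter, and 3 without it. With H2-Oa counted, it was 2 with no filter, 2 when only the groups compared were fitted, 0 with array weights and 1 to 5 on leaving out each library in turn. With the replicate block it was 2. Same-numbered libraries did not deviate together (r of -0.015 to 0.021 over 18 pairs, 0 of them above 0.1), so the numbers do not pair the samples. With array weights limma gave an adjusted p of 0.165 for H2-Aa, 0.196 for H2-Eb1, 0.304 for H2-DMa and 0.0733 for H2-Oa in that comparison, and the cause was not tested. The count was 6 under median-ratio scaling, with H2-Oa among them. On leaving out each library the count of members was 3 to 4 for growing KO against growing WT, 4 to 5 for dormant against growing WT, 5 to 7 for dormant against growing KO and 2 to 3 for the interaction. The counts for dormant against growing KO and for the interaction include H2-Oa. Without it the main fit called 5 members higher by state in KO hosts and 1 lower in the interaction. The interaction count was 1 with array weights, against 2.

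Of 728 values of the members over all alternatives, those of H2-Oa included, 673 kept their direction and their side of the threshold, 39 lost a call, 16 gained one and 0 reversed. Cd74, H2-Aa, H2-Ab1 and H2-Eb1 were called by state in both hosts in all 21 alternatives. Calls of other listed genes were lost in 239 of 2437 values and reversed in 0, a set added after the data were seen.

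Scaling moved the median of all genes between dormant KO and dormant WT from 0.169 to 0.501 (median ratio) or -0.144 (quantile). It also moved the split of called genes from 1677 higher and 1221 lower to 2289 and 804, or to 1513 and 1508. By state in KO hosts the split went from 1080 and 1233 to 1491 and 663, or to 1263 and 958, and in WT hosts from 240 and 737 to 489 and 478 with quantile normalization. The interaction split went from 803 and 509 to 1130 and 299 with median-ratio scaling. Over all genes, array weights changed the number called from 2898 to 1418 between dormant groups, from 127 to 516 between growing groups, from 977 to 310 by state in WT hosts and from 2313 to 3586 by state in KO hosts. Fits of only the groups compared gave 1680 and 308 for the host comparisons. Leaving out 1 growing library lowered the growing count to 66 to 78 and the count by state in WT hosts, for growing WT libraries, to 447 to 481, no filter brought the latter to 637 and leaving out the dormant WT library of replicate 1 to 1918, and without the dormant KO library of replicate 1 the interaction count was 861 against 1312. Without a depth, a value of 0 or near 0 for Ciita, H2-Oa or H2-DMb1 cannot be told from a transcript missed in 50 cells.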
